A study of Homo sapiens with 6 samples.

Results

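The ETS family of transcription factors was followed in RBE, a human cell line established from a cholangiocarcinoma, the cancer of the bile ducts, through 10 genes chosen by name: the epithelial factors ELF3 and EHF, the ERK-responsive factors ETV1, ETV4 and ETV5, and the widely expressed factors ETS1, ETS2, ELF1, ELF2 and ELF4. All 10 had a row among the 16200 genes of the table, and all 10 passed the filter on low counts. The data comprised 6 poly(A)-enriched RNA libraries, 3 from cells labelled NC, the reference, and 3 from cells labelled sgKCNQ3, where sg commonly stands for single guide and KCNQ3 encodes a potassium channel subunit. The effector paired with the guide, the time after its delivery and whether the cells were a clone or a pool are not stated by the labels. Separate cultures are not named by the labels either, and p-values therefore reflect the spread among these 6 samples alone, which may be technical. The study asked which genes respond downstream of KCNQ3, with ERK1/2 signalling as a named interest.

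ETS proteins bind DNA through a shared winged helix domain that reads the core GGAA, and members differ in partners, in regulation and in the tissues that make them. ERK phosphorylates ETS1, ETS2 and the ternary complex factors and so raises their activity, while the PEA3 group (ETV1, ETV4 and ETV5) is itself transcribed in response to receptor tyrosine kinase and ERK signalling, held down by the repressor capicua (CIC) and degraded through the ubiquitin ligase COP1. ELF3 and EHF mark simple and glandular epithelia, the bile duct lining included. In bile duct and other gastrointestinal cancers ELF3 is a recurrently mutated gene.

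The genes are spread over 9 chromosomes, given here in GRCh38 with GENCODE release 29. ELF3 (Entrez gene 1999) lies on chromosome 1 from 202007945 to 202017188, plus strand, and EHF (26298) on chromosome 11 from 34621093 to 34661057, plus strand. ETV1 (2115) lies on chromosome 7 from 13891228 to 13991425, ETV4 (2118) on chromosome 17 from 43527844 to 43579620, and ETV5 (2119) on chromosome 3 from 186046308 to 186110318, each on the minus strand. ETS1 (2113) occupies chromosome 11 from 128458761 to 128587558 on the minus strand, and ETS2 (2114) chromosome 21 from 38805307 to 38824955 on the plus strand. ELF1 (1997) is on chromosome 13 from 40932028 to 41061440, ELF2 (1998) on chromosome 4 from 139028112 to 139177218, and ELF4 (2000) on chromosome X from 130064874 to 130110716, all on the minus strand. Several have an ETS neighbour: FLI1 lies 99.0 kb from ETS1, ERG 143.5 kb from ETS2, and ELF5 107.3 kb from EHF.

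Promoter sequences (RefSeq, GRCh38.p14) were held for 7 of the 10 genes, in 19 windows of 250 bases that end just before an annotated start site. They are shown for ETV1, the PEA3 gene that rose, for EHF, a relative of ELF3, and for ETS2, in windows that hold no annotated exon. Capitals mark the ETS core GGAA on either strand (TTCC on the other) and, in ETV1, the capicua octamer TGAATGGA. The ETV1 window, chr7:13991426-13991675 on the minus strand, and the ETS2 window, chr21:38804933-38805182 on the plus strand, overlap no gene, and the EHF window, chr11:34624007-34624256 on the plus strand, lies in an intron of longer EHF transcripts. Each is written 5′ to 3′.
ETV1: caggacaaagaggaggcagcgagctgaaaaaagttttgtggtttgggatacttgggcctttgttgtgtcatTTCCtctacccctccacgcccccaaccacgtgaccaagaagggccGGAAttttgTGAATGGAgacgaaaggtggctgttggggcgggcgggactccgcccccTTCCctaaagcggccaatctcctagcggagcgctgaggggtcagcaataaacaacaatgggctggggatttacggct
EHF: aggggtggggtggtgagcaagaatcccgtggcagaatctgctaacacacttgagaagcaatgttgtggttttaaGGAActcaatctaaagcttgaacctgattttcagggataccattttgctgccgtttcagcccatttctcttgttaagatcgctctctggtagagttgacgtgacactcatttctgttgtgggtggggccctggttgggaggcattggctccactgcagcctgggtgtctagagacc
ETS2: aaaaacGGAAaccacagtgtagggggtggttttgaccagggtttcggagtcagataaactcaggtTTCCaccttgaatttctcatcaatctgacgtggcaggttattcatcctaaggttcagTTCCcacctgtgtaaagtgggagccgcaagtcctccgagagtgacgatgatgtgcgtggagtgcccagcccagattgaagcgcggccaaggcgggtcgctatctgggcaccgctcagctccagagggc

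Matches were ordinary in number. GGAA on either strand was found in 92.7% of the 35116 promoter windows of the table, with a median of 3 matches, and the windows of these genes held 0 to 6. The ETS consensus CCGGAAGT, searched on both strands and containing the core, was in none of the 19 windows and in 3.42% of all windows. The capicua octamers TGAATGAA and TGAATGGA, on either strand, were in 1.40% and 0.832% of all windows, and 1 of the 6 ETV1 windows, the one printed, held TGAATGGA, at position -125 from the start site. The ELF3 window (chr1:202010337-202010586) lies in the untranslated exon of a longer ELF3 transcript, and its 2 core matches are given alone, each with 10 bases on either side.
ELF3 at chr1:202010405-202010428: cgggcctgatTTCCcagcactgcc
ELF3 at chr1:202010489-202010512: ctaaaggccaGGAAatcccctcca
A match is a description of the letters and not evidence of binding.

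Libraries held 15601283 to 16089500 estimated counts each. The first principal component of log2 CPM, 46.4% of the variance, separated the groups. KCNQ3 itself was lower in every sgKCNQ3 library, with 16.3 ± 0.254 CPM for NC against 12.99 ± 1.0 (SD, n = 3 per group; log2 fold change -0.33, edgeR adjusted p 0.00446), and was not called on log2(TPM + 1) (-0.15, limma adjusted p 0.140). CPM, a depth-scaled count, here uses the TMM-scaled library, and called means an adjusted p under 0.05 in edgeR's quasi-likelihood test over 12565 genes. The bile duct keratin KRT7 stood at 1580 TPM and KRT19 at 673 TPM in NC, and the pan-leukocyte gene PTPRC and the endothelial gene CDH5 at 0.0133 and 0.01 TPM. Summed over the lists, fibroblast markers lay at 2.17 to 2.83 TPM and endothelial markers at 0.16 to 0.57 TPM in all 6 libraries. The 6 leukocyte markers summed to between 94.8 and 101 TPM in NC libraries and between 80.6 and 88.5 TPM in sgKCNQ3 libraries, nearly all of it CD68, a lysosomal protein gene. CD68 was called lower (mean 95.9 TPM in NC and 84.2 in sgKCNQ3, log2 fold change -0.27, edgeR adjusted p 1.06e-04), as was CSF1R at under 1 CPM (-1.21, 0.0347), which lost its call without NC replicate 2, NC replicate 3 or sgKCNQ3 replicate 3; their part in the results below was not tested.

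The ETS genes moved in both directions, the epithelial factor ELF3 and the PEA3 factor ETV1 most. Of the 10, 4 were called higher in sgKCNQ3 (ELF3, ETV1, ELF2 and ELF1) and 5 lower (ELF4, ETS1, ETS2, ETV5 and EHF), and ETV4 was not called. Among all tested genes 29.1% were called, 14.0% higher and 15.1% lower, and 34.8% were called among the 8552 genes at least as abundant as the rarest of the 10. In CPM the NC and sgKCNQ3 values were separate for all 10, as they were for 41.7% of tested genes. In TPM the values of EHF, ELF4, ETS2, ETV4 and ETV5 overlapped between groups. The median log2 fold change of the 10 was -0.14, beside -0.0074 over all tested genes, and the median size was 0.21 beside 0.12. The genes were proposed with earlier results of these data known, so these counts describe them and are not independent support.

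**Figure D1:**
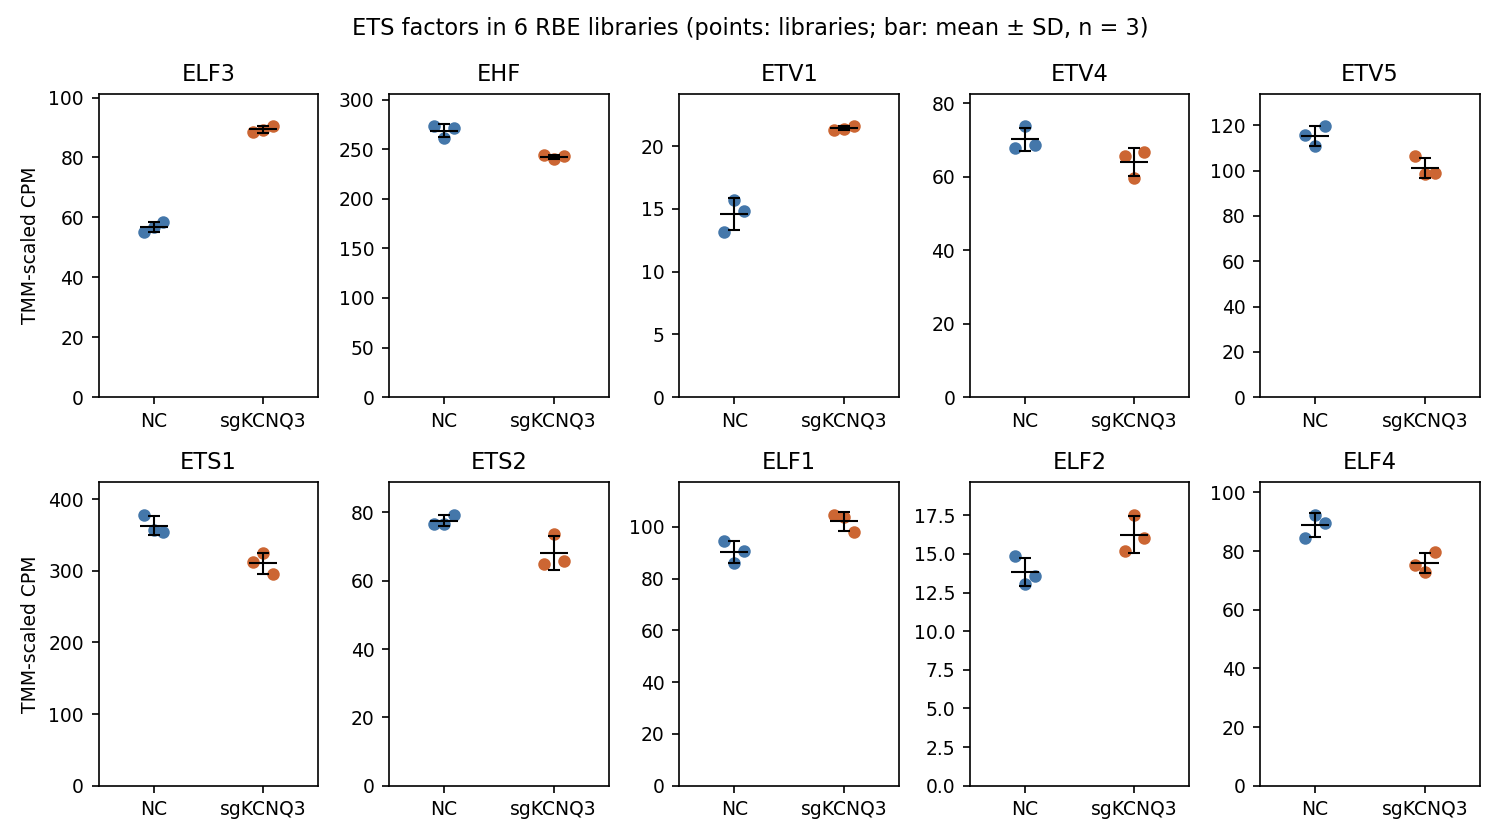
TMM-scaled CPM of the 10 ETS genes in each of the 3 NC and 3 sgKCNQ3 libraries, 1 panel per gene with its own axis from 0; points are libraries and bars the mean ± SD. Relative to the NC mean, ELF3 and ETV1 show the widest gaps between groups, from 56.8 to 89.3 and from 14.6 to 21.4 CPM, and no panel has overlapping groups.

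ELF3, an epithelial activator made in bile duct, gut and airway lining, had the largest change of the 10. The 3 NC libraries had 55.2, 56.9 and 58.4 CPM, the sgKCNQ3 libraries 88.4, 89.1 and 90.5. Every sgKCNQ3 library thus lay far above every NC library, with little spread in either group. The means were 56.8 ± 1.63 and 89.3 ± 1.06 (SD, n = 3), a log2 fold change of 0.65 (SE 0.0464, 95% interval 0.56 to 0.75, edgeR adjusted p 1.74e-10). ELF3 ranked 10 among 12565 genes by p, and 2.25% of tested genes changed by more in size. It stayed called under all 16 alternatives, with log2 fold changes from 0.63 to 0.80. ELF3 shares 664 exonic bases, 9.23% of its exons, with the antisense gene ELF3-AS1 and as many with AL691482.3 on its own strand, neither analysed here. Without a stated strand setting, reads of overlapping genes cannot be told apart. In bulk RNA more cells making a transcript and more transcript per cell cannot be told apart either, here or for the genes below.

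EHF, a relative of ELF3 and likewise epithelial, went the other way by a small amount. Its CPM was 273, 261 and 271 in NC against 244, 239.6 and 243 in sgKCNQ3. The 3 sgKCNQ3 values lay close together, below the lowest NC value. EHF fell by 9.84% (log2 fold change -0.15, SE 0.0368, edgeR adjusted p 0.00334). On log2(TPM + 1) its difference was -0.057 and not called (limma adjusted p 0.316).

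Within each sgKCNQ3 library ELF3 stood closer to EHF than in any NC library. TPM divides counts by gene length, so ratios of TPM compare genes, and a ratio within a library does not depend on how libraries are scaled. The ELF3 to EHF ratio in NC was 0.503, 0.469 and 0.577, against 0.916, 0.935 and 0.968 in sgKCNQ3. The groups did not overlap, and the mean log2 ratio was higher by 0.87 in sgKCNQ3 (two-sided exact permutation p 0.1, the smallest that 3 against 3 libraries allow; 0.175 adjusted over 7 pairs). In NC libraries ELF3 thus stood at 0.516 ± 0.0549 of the EHF level, and in sgKCNQ3 libraries at 0.940 ± 0.0263 (SD, n = 3). From estimated counts, with no length, the log2 difference was 0.80. The ratio restates the changes of both genes and is not independent support.

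The PEA3 group split, ETV1 higher and ETV5 lower. ETV1, a PEA3 factor known as a driver in prostate and gastrointestinal stromal tumours, was the least abundant of the 10 per length. NC libraries held 13.2, 15.7 and 14.8 CPM of it, sgKCNQ3 libraries 21.3, 21.4 and 21.6, so that the groups lay well apart and the sgKCNQ3 libraries nearly coincided. ETV1 rose 1.47-fold (log2 fold change 0.56, SE 0.0792, 95% interval 0.39 to 0.72, edgeR adjusted p 1.03e-05), and 3.53% of tested genes changed by more in size. It stayed called under all 16 alternatives, with its smallest value, 0.42, once each library's trends over transcript length and GC content were removed.

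ETV5, an ERK-induced factor of branching epithelia, changed less and in the opposite direction. NC libraries had 116, 111 and 119.7 CPM, sgKCNQ3 libraries 106, 98.5 and 99.1. The highest sgKCNQ3 library lay only a little below the lowest NC library. ETV5 fell by 12.2% (log2 fold change -0.19, SE 0.0451, edgeR adjusted p 0.00274), and on log2(TPM + 1) it was at -0.095 and not called (limma adjusted p 0.208). It shares 164 exonic bases with DGKG on the same strand, a gene of 29 to 47 counts per library.

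ETV4, the third PEA3 factor and per length (TPM) the most abundant of them, did not pass the test. Its levels were 67.9, 73.8 and 68.7 CPM for NC, against 65.7, 59.7 and 66.6 for sgKCNQ3. The groups touch closely without overlapping. The log2 fold change was -0.13 (SE 0.0522, 95% interval -0.24 to -0.02, edgeR adjusted p 0.0584). It was called without a filter (adjusted p 0.0393) and without sgKCNQ3 replicate 3 (log2 fold change -0.16, adjusted p 0.0456), and it was at -0.077 without sgKCNQ3 replicate 2 (0.277), at -0.063 with length and GC trends removed (0.314) and at -0.051 on log2(TPM + 1) (limma adjusted p 0.578). ETV4 shares 68 exonic bases with DHX8 on the opposite strand, a gene of 1187 to 1288 counts per library. The 95% interval is not adjusted for the number of genes and lies wholly on the lower side (unadjusted edgeR p 0.0177). The missing call therefore does not show an absence of change.

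Ratios within libraries restate the values of the PEA3 group without library scaling and are not independent support. ETV1 stood at 0.0917, 0.117 and 0.102 of ETV5 in NC and at 0.165, 0.174 and 0.174 in sgKCNQ3, in TPM. The mean log2 difference was 0.73 for ETV1 to ETV5 and 0.68 for ETV1 to ETV4, without overlap in either (two-sided exact permutation p 0.1 each, 0.175 adjusted over 7 pairs). The ETV4 to ETV5 ratio overlapped between groups, at 1.23 ± 0.11 and 1.27 ± 0.066 (SD, n = 3; exact permutation p 0.6), and its difference turned from 0.045 to -0.00050 without NC replicate 3. The summed TPM of the group was 106 ± 2.68 in NC and 104 ± 6.13 in sgKCNQ3 (exact permutation p 0.7), while in FPKM it was 70.2 ± 1.13 and 65.9 ± 3.25 without overlap (exact permutation p 0.1).

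ETS1 and ETS2, broadly expressed ERK substrates whose Pointed domains dock the kinase, fell together. ETS1 was at 379, 356 and 355 CPM in NC and 312, 325 and 296 in sgKCNQ3, clear of each other. It fell by 14.5% (log2 fold change -0.23, SE 0.0402, edgeR adjusted p 1.57e-04) and stayed called under all 16 alternatives. ETS2 was at 76.6, 76.7 and 79.4 CPM in NC and 64.8, 73.8 and 65.7 in sgKCNQ3, where replicate 2 stood nearer to NC than the others. ETS2 fell by 12.2% (log2 fold change -0.19, SE 0.0511, edgeR adjusted p 0.00695). Its call ended without sgKCNQ3 replicate 1 (-0.15, adjusted p 0.0679) and on log2(TPM + 1) (-0.10, limma adjusted p 0.176). Their ratio overlapped between groups, at 3.25 ± 0.178 in NC and 3.17 ± 0.133 in sgKCNQ3 (exact permutation p 0.6), a log2 difference of -0.036 that turned to 0.0037 without NC replicate 1.

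The ELF1, ELF2 and ELF4 subgroup, best known from lymphoid and myeloid cells but made in most tissues, split. ELF1 was at 94.4, 86.0 and 90.7 CPM in NC and 105, 104 and 97.9 in sgKCNQ3, and rose by 0.18 on the log2 scale (SE 0.0461, edgeR adjusted p 0.00512). It stayed called under all 16 alternatives, and shares 167 exonic bases with WBP4 on the opposite strand, a gene of 355 to 451 counts per library. ELF4 was at 84.6, 92.5 and 89.6 CPM in NC and 75.2, 72.9 and 79.6 in sgKCNQ3, and fell by 14.6% (log2 fold change -0.23, SE 0.0483, edgeR adjusted p 9.17e-04), though not on log2(TPM + 1) (-0.13, limma adjusted p 0.122). The ELF1 to ELF4 ratio in TPM was 1.20 ± 0.12 in NC and 1.59 ± 0.117 in sgKCNQ3, without overlap (SD, n = 3, exact permutation p 0.1, 0.175 adjusted over 7 pairs). It restates the changes of both genes and is not independent support.

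ELF2 had the least secure call of the 10. Its counts were few, 229, 207 and 212 in NC and 242, 277 and 256 in sgKCNQ3, or 14.8, 13.1 and 13.6 against 15.2, 17.6 and 16.0 CPM. The log2 fold change was 0.23 (SE 0.0857, edgeR adjusted p 0.0412). The call ended in 4 of 6 fits with a library omitted, those without NC replicate 2 (adjusted p 0.140), NC replicate 3 (0.117), sgKCNQ3 replicate 2 (0.140) and sgKCNQ3 replicate 3 (0.0582), and with DESeq2 (0.139) and length and GC trends removed (0.0896). The ELF1 to ELF2 ratio overlapped between groups (5.32 ± 0.257 and 5.38 ± 0.258).

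**Figure D2:**
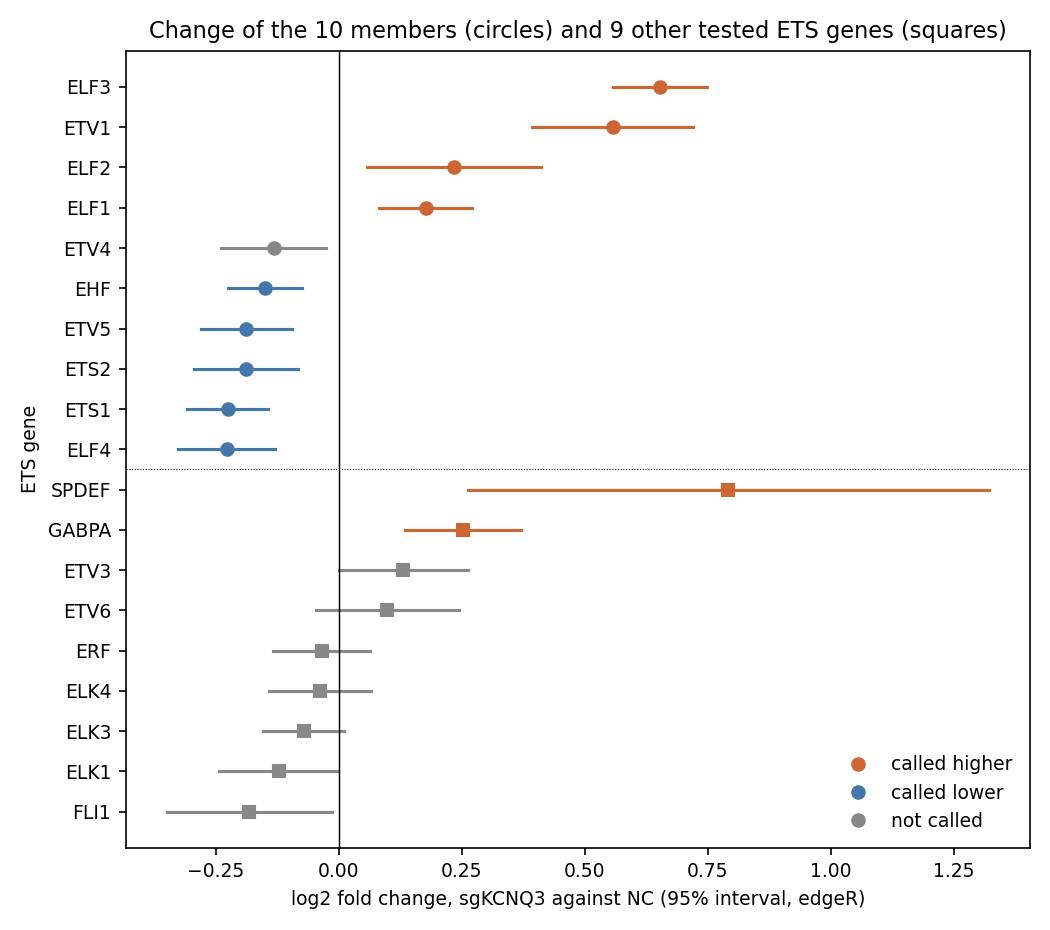
log2 fold change of sgKCNQ3 against NC with its 95% interval from edgeR, for the 10 genes (circles) and the 9 other tested ETS genes (squares); colour gives the call. ELF3 (0.65) and ETV1 (0.56) stand apart from the other 8 circles, which lie between -0.23 and 0.23.

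Ordered by TPM in NC, ETS1 led at 111 ± 3.51 and EHF followed at 79.6 ± 1.84, then ETV4 at 56.0 ± 2.95, ETV5 at 45.5 ± 1.96, ELF3 at 41.2 ± 5.20, ELF1 at 39.6 ± 1.81, ETS2 at 34.2 ± 0.913 and ELF4 at 33.1 ± 1.88 (SD, n = 3). ELF2, at 7.44 ± 0.148, and ETV1, at 4.71 ± 0.504, were far below. The library ranges of ETV5 and ELF3, of ELF3 and ELF1, and of ETS2 and ELF4 overlapped, and differences between those neighbours were not tested. In sgKCNQ3, ELF3 moved from the fifth to the third place, at 71.9 ± 3.08, with a range that overlapped that of EHF (76.5 ± 1.97). ELF1, at 47.6 ± 1.42, passed ETV5, at 42.6 ± 2.21, without overlap. The rise of ETV1, to 7.28 ± 0.202, left it in the last place.

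**Figure D3:**
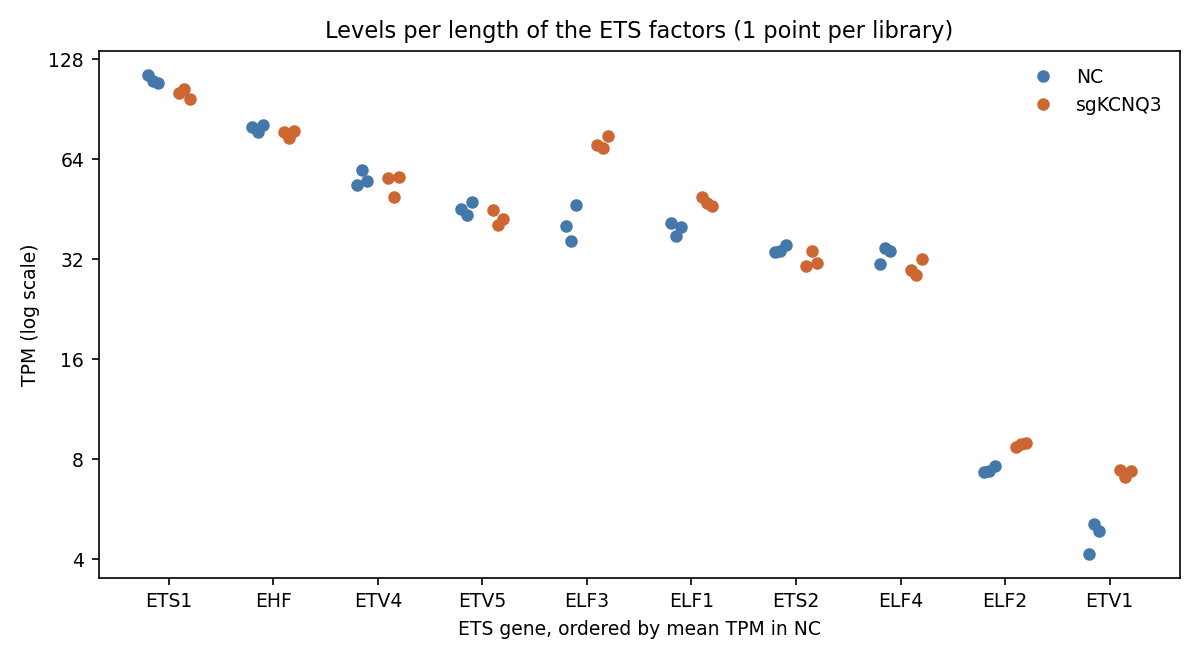
TPM of the 10 ETS genes on a log axis, ordered by their mean in NC, 1 point per library. ELF3 stands at 41.2 TPM in NC and at 71.9 in sgKCNQ3, next to EHF, while ELF2 and ETV1 stay under 10 TPM in every library.

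ELF3 and EHF together made up 26.7% ± 1.08 of the summed TPM of the 10 genes in NC and 31.5% ± 0.666 in sgKCNQ3, and ETS1 and ETS2 32.1% ± 0.841 and 28.2% ± 1.42 (SD, n = 3). The sum itself was 453 ± 7.51 TPM in NC and 472 ± 7.24 in sgKCNQ3 (exact permutation p 0.1). In FPKM, which is not rescaled to a fixed total, it was 299 ± 5.31 and 299 ± 1.63, with overlapping libraries (exact permutation p 1.0). The deposited FPKM of all genes summed to 656809 to 668732 in NC and 630332 to 642515 in sgKCNQ3.

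Of 18 further ETS family members, 15 had a row and 9 passed the filter, and of these 2 were called higher and none lower, beside 29.1% of all tested genes called (median log2 fold change -0.035). At an unadjusted p under 0.05 in edgeR, 2 more, ELK1 and FLI1, were lower, and DESeq2 called 0 lower. GABPA, the subunit of the GA-binding protein that binds DNA and serves mitochondrial and housekeeping genes, was at 41.4, 38.0 and 37.1 CPM in NC and 45.5, 45.7 and 47.7 in sgKCNQ3. It rose by 0.25 on the log2 scale (SE 0.0575, edgeR adjusted p 0.00175). Its window was one of those that hold CCGGAAGT, as was that of ELK4, which was not called. SPDEF, a factor of secretory epithelia, was rare, with 14, 17 and 20 counts in NC and 32, 36 and 22 in sgKCNQ3. It rose by 0.79 (SE 0.257, edgeR adjusted p 0.0222) and lost the call in 4 of 6 fits with a library omitted, those without NC replicate 1 or 2 or sgKCNQ3 replicate 1 or 2 (adjusted p up to 0.101).

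The ternary complex factors, SRF partners that ERK phosphorylates, passed no threshold: ELK1 at -0.12, ELK3 at -0.07 and ELK4 at -0.04 on the log2 scale, with edgeR adjusted p from 0.121 to 0.602. The ERK-inactivated repressor ERF (-0.03), the repressors ETV3 (0.13) and ETV6 (0.10), and FLI1 (-0.18), a factor of blood and endothelium that neighbours ETS1, were not called either (edgeR adjusted p 0.0968 to 0.624). With length and GC trends removed, ELK3 (-0.11) and ELK4 (-0.20) were called lower, and on log2(TPM + 1) ETV3 was called higher (0.22). ELF5, ERG, ETV2, ETV7, SPI1 and SPIB held 0 to 8 counts per library and were not tested.

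Genes that regulate or partner ETS proteins were mostly uncalled. Of 14, 2 rose and 2 fell, a share near that of all tested genes (29.1%). TRIB1, an adaptor that brings substrates to COP1, went up from 54.7 ± 2.45 CPM to 70.2 ± 3.94 (log2 fold change 0.36, SE 0.053, edgeR adjusted p 1.54e-05). The AP-1 genes FOS, often bound beside ETS proteins, and JUN changed in opposite directions, at 0.28 (edgeR adjusted p 4.93e-05) and -0.18 (8.09e-04), and JUN was not called on log2(TPM + 1) (-0.087, limma adjusted p 0.111). GABPB1, the partner of GABPA, was called lower (-0.19, edgeR adjusted p 0.0281), but not in 4 of 6 fits with a library omitted, those without NC replicate 1 or 3 or sgKCNQ3 replicate 1 or 3 (adjusted p up to 0.121). CIC (-0.04) and COP1 (-0.05), which restrain the PEA3 factors at the gene and the protein, were not called (edgeR adjusted p 0.616 and 0.594); they were named after their values were seen.

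The ERK output genes beside which ETV4 and ETV5 are usually read also split. A published MAPK activity score holds 8 genes outside the ETS family, and of these 2 rose and 5 fell, beside 14.0% and 15.1% of all tested genes, with a median log2 fold change of -0.24. EPHA2 fell from 434 ± 20.2 to 340.1 ± 9.92 CPM, PHLDA1 from 534 ± 7.74 to 418 ± 5.17, and DUSP6, a phosphatase of ERK itself, from 95.7 ± 4.11 to 73.6 ± 4.15. DUSP4, a nuclear phosphatase of ERK, rose from 158 ± 1.88 to 199.5 ± 4.17 CPM. The log2 fold changes were -0.35, -0.35, -0.38 and 0.34, with edgeR adjusted p from 4.20e-08 to 2.98e-06. MAPK3, which encodes an ERK kinase, was not called (-0.09, edgeR adjusted p 0.319).

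Of 16 listed genes of the epithelial programme around ELF3 and EHF, 12 were tested, 3 rose and 1 fell, beside 29.1% of all tested genes called. CDH1 (E-cadherin) rose from 2.30 ± 0.225 to 4.15 ± 0.418 CPM (log2 fold change 0.85, edgeR adjusted p 4.81e-04). It was rare, with 32 to 38 counts in NC libraries and 58 to 71 in sgKCNQ3 libraries. CXADR, a tight junction receptor, rose from 3.50 ± 0.586 to 5.03 ± 0.485 CPM (0.52, edgeR adjusted p 0.0108). It was rare as well, with 48 to 65 and 73 to 89 counts. The CXADR call ended without NC replicate 2 (edgeR adjusted p 0.0661) and with DESeq2 (adjusted p 0.0628). Among the untested genes, GRHL2 had no row, and OVOL1, OVOL2 and RAB25 held 0 to 3 counts per library. CLDN7 (0.40, edgeR adjusted p 0.0498) lost its call in all 6 fits with a library omitted. KLF5, an epithelial Kruppel-like factor, was called lower (-0.23, edgeR adjusted p 0.00846), though not without NC replicate 1 (0.0505) or sgKCNQ3 replicate 3 (0.0745). TGFBR2, a textbook target of ELF3, was not called (0.03, edgeR adjusted p 0.593) and was named after its value was seen. Of 6 bile duct markers, 3 were called higher (KRT8 at 0.28, KRT18 at 0.16 and SOX9 at 0.18), beside 14.0% of all tested genes. KRT7 (0.04, edgeR adjusted p 0.459), KRT19 (0.12, 0.0956) and EPCAM (0.10, 0.222) were not called. The 6 summed to between 3992 and 4085 TPM in NC libraries, and between 4612 and 4732 TPM in sgKCNQ3 libraries. The median of all genes was itself higher on log2(TPM + 1), by 0.065. The part of these markers in the ELF3 result was not tested.

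Of 15 textbook targets of ETS1, ETS2 and the PEA3 factors, 6 passed the filter on low counts, of which 3 rose and 1 fell, beside 29.1% of all tested genes called. The urokinase gene PLAU fell from 538 ± 27.1 to 435 ± 3.06 CPM (log2 fold change -0.31, edgeR adjusted p 1.60e-06), and ANPEP, an aminopeptidase with a myeloid ETS promoter, rose from 12.6 ± 0.946 to 21.1 ± 0.337 (0.75, 1.39e-07). ITGB3 (0.16, edgeR adjusted p 0.0327) and ERBB2 (0.19, 0.0318) were called higher, each losing the call in 4 of 6 fits with a library omitted: both without NC replicate 3, sgKCNQ3 replicate 1 or sgKCNQ3 replicate 3, ITGB3 also without NC replicate 2, and ERBB2 also without NC replicate 1 (adjusted p up to 0.158 and 0.147).

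The split of calls over all genes depends on the scale, which bears on the small falls above. Higher genes made up 48.2% of all calls with TMM factors, 64.5% with library size alone, 81.0% on log2(TPM + 1) and 39.7% with length and GC trends removed. Under these settings ELF3, ETV1 and ELF1 remained called higher and ETS1 called lower. On log2(TPM + 1), where the median of all genes stood at 0.065, ETS1 was the 1 gene of the 10 called lower.

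**Figure D4:**
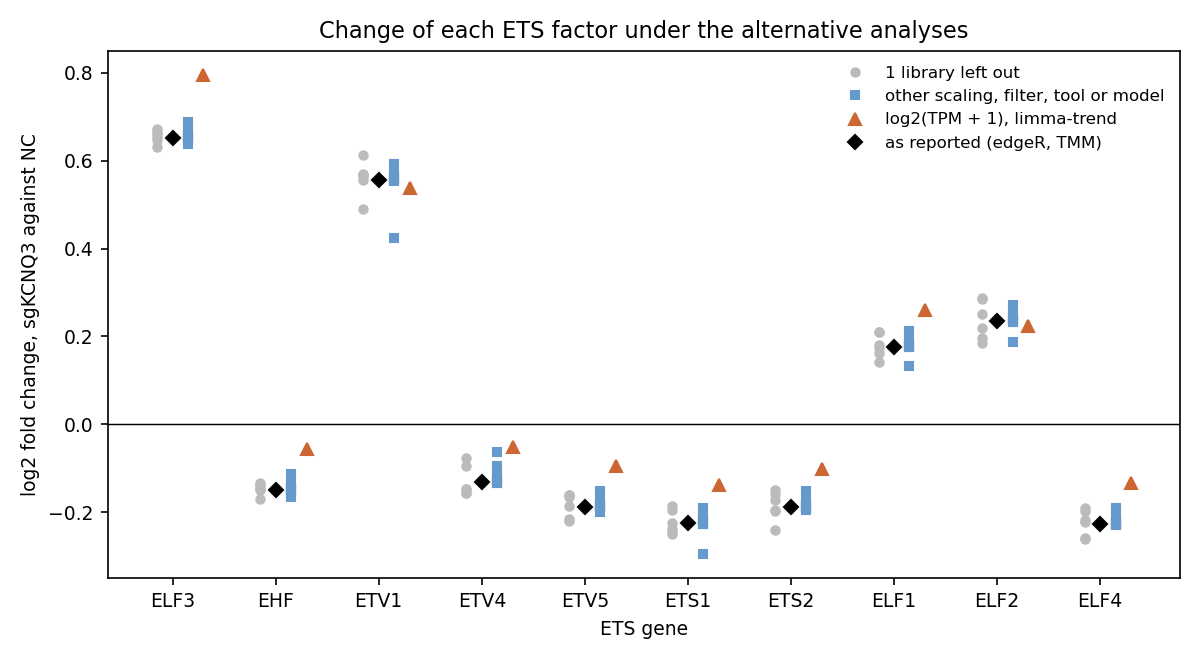
log2 fold change of each of the 10 genes as reported (diamond), with 1 library left out (grey), under other scaling, filter, tool or model (squares) and on log2(TPM + 1) (triangle). No gene changes sign, ELF3 and ETV1 stay above 0.42, and the triangles of the lower genes lie nearest to 0.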

How the data were processed

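Poly(A)-enriched RNA from 3 NC and 3 sgKCNQ3 libraries was reverse transcribed with random primers, per the labels' protocols. The deposited estimated counts (expected counts per gene) were not normalized by the authors; 5.52% to 6.33% per library were not whole. TPM and FPKM computed by the authors stood beside them, per the file headers. A deposited signal, the counts over a constant for each library, and deposited group means, 1 pair of them a whole-number score, entered no test. Per the submitters' processing notes, GRCh38.p13 was used; the aligner, the counter and strand handling are not given in these sources.

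Rounded counts entered edgeR 4.0.16 under R 4.3.3 with filterByExpr (minimum count 10), TMM factors and robust quasi-likelihood F tests. P-values were adjusted by Benjamini-Hochberg over 12565 of 16200 genes, with a threshold of 0.05. The procedure was also run on simulated counts of constant spread as a check of the code, which does not test the calls reported here. The SE is the log2 fold change divided by the square root of F. Within groups, chi-square per degree of freedom between libraries was 1.62 to 4.04, above sampling noise, so no library appeared to be deposited again; repeat preparations of 1 culture cannot be told apart this way. Levels between genes were compared in TPM, and ratios and sums by exact two-sided permutation of libraries, which cannot go below 0.1. Alternatives were DESeq2 1.42.0, scaling by RLE, by upper quartile or by library size, limma 3.58.1 (voom on counts, and trend on log2(TPM + 1)), no filter or a minimum of 2 CPM in 3 libraries, a block for replicate number, removal of length and GC trends (GENCODE 29, lengths for 16032 genes), and each library left out. The genes and lists were chosen with earlier results of these data known. All 10 members, the tested ETS genes, KCNQ3, MAPK3 and up to 4 called genes per list with the smallest p were named; some items are not reported here. Figures used matplotlib 3.10.9.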

Additional observations from a re-analysis of the deposited data

How the results depend on the processing

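Over 16 alternatives, the 10 ETS genes kept their direction in each. All genes called numbered 2448 (DESeq2) to 3822 (no filter), and 2687 to 3471 without 1 library. DESeq2 did not call SPDEF, GABPB1, CXADR, CLDN7, ITGB3 or ERBB2, which edgeR had called (DESeq2 adjusted p from 0.0628 to 0.202). ETS genes called higher numbered 3 to 4, and those called lower 4 to 6 without 1 library and 1 on log2(TPM + 1). The labels give both groups replicate numbers 1 to 3, but same-numbered libraries deviated with correlations of -0.0977 to 0.0136, so the numbers were not taken as pairs; with the replicate block 3136 genes were called, 3 ETS genes higher and 5 lower, ELF2 losing its call (adjusted p 0.0713).

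The summed level of the 10 genes differed by 0.059 on the log2 scale in TPM and by 0.00054 in FPKM. Ratios without a separation of groups changed sign: ETV4 to ETV5 ranged from -0.00050 to 0.12 and ETS1 to ETS2 from -0.075 to 0.0037 without 1 library, and ELF1 to ELF2 from -0.023 to 0.053 (-0.015 without NC replicate 2, and -0.057 from estimated counts). Uncalled genes near 0 changed sign as well: ERF was at 0.0017 with library size alone, 0.050 on log2(TPM + 1) and 0.037 with length and GC trends removed, and ELK4 at 0.035 on log2(TPM + 1). The causes were not tested.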

Other observations

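Dividing a gene's estimated count by its FPKM gives the length at which the authors' counter normalized it in that library, taking the library total as the sum over the table. For ELF3 this length was 2016.5, 2338.2 and 1883.1 bases in NC and 1999.8, 2006.0 and 1941.6 in sgKCNQ3, so that NC replicate 2 stood apart from the other 5 libraries. Its coefficient of variation was 7.82%, and 2.61% of 10933 genes with an FPKM of at least 1 in every library varied more. ELF2 varied likewise, from 2652.7 to 3080.1 bases (5.93%, exceeded by 4.65% of genes). The other 8 ETS genes varied by 0.183% to 1.65%, around a median over all genes of 0.798%. In NC, ELF3 ranged from 36.4 to 46.7 in TPM and from 55.2 to 58.4 in CPM. GENCODE release 29 lists coding transcripts of 769 to 4994 bases for ELF3. Which transcripts were counted was not tested.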
